A study of Mus musculus with 3 samples.

Results

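Ion-pumping ATPases use ATP to move cations across membranes, and they set the sodium, calcium and proton gradients on which most other transport in a cell depends. The genes described here are those whose name on the array begins as a sodium pump (Atp1), calcium pump (Atp2a, Atp2b, Atp2c), proton-potassium pump (Atp4a, Atp4b, Atp12a) or vacuolar proton pump gene (Atp6v, Atp6ap), taken from the probes that are not controls. This rule found 72 of 41174 probes, for 41 of 27670 gene names. It uses names and no measured value. The tissue was the utero-tubular junction, the narrow muscular passage from the uterus into the oviduct that sperm have to cross. Total RNA came from adult CD-1 mice in estrus, each group being 1 pool of 10 females hybridised to 1 single-colour Agilent array. One group was left unmated, another was mated with vasectomized males, whose semen lacks sperm, and the last with normal males. The labels do not say how long after mating the tissue was taken.

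The sodium pump (Na+/K+-ATPase) exchanges sodium for potassium at the plasma membrane and is built of a catalytic alpha and a beta subunit. Calcium pumps clear calcium from the cytosol into the endoplasmic reticulum (SERCA, Atp2a genes), out of the cell (PMCA, Atp2b genes) or into the Golgi (SPCA, Atp2c genes), and in smooth muscle they end a contraction. The vacuolar proton pump (V-ATPase) is a rotary machine in which the cytosolic V1 sector burns ATP and the membrane V0 sector carries protons. It acidifies lysosomes and secretory vesicles in nearly all cells, and in some epithelial cells it sits at the surface and acidifies a lumen, as in the kidney and the epididymis.

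With 1 array per group there was no replicate, so no test was possible, and the ratios below describe these 3 pools. Signals are given as processed intensities in arbitrary units, which are not scaled between arrays. Ratios are log2 values after each array was scaled to its 75th percentile, which was 874 on the not mated, 295 on the vasectomized-mated and 708 on the normal-mated array. A gene was called different at a 2-fold ratio, a log2 value of 1. The median SD between replicate spots of a probe lay between 0.0543 and 0.0644 on the log2 scale, which covers printing and scanning and leaves out animals. All 3 arrays shared 1 slide and 1 scan. Of the non-control spots, between 65.9% and 70.7% had a signal well above background, and no spot was saturated. Scaling to the 9 spike-in probes instead moved the median log2 ratio of all genes from -0.05 to -0.55 for normal mated against not mated, from 0.18 to -2.65 for vasectomized mated against not mated, and from -0.27 to 2.01 for normal against vasectomized mated. It shifts each measured ratio in these comparisons by -0.48, -2.77 and 2.29, so a positive ratio to the not mated array that is smaller than the shift, or a negative ratio between the matings that is, changes sign with it. Ratios that involve the vasectomized-mated array are therefore relative to the other genes on it. A gene with a signal well above background on 1 of the arrays compared gives a bound, written "at least", and a gene with neither was not compared.

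Markers of the tissue's cell types were present on every array. All 9 smooth muscle markers, all 9 epithelial markers, all 8 endothelial and all 8 stromal markers were well above background throughout, as were all 7 markers of the oviduct's secretory and ciliated epithelium. The neurofilament genes Nefl and Nefm and the muscle genes Myh4 and Pvalb were not well above background on any array. Cell-type markers also differed between arrays. In bulk tissue, fewer cells of a type and less RNA per cell cannot be told apart.

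Most pump genes were measured. Of the 41 genes, 33 were well above background on all 3 arrays, 5 on 1 or 2 arrays, and 3 on none. The 3 without a measurable signal were Atp1b4, a muscle protein of the beta subunit family, Atp2b3, a plasma membrane calcium pump known from neurons, and Atp6v1g3, a kidney form of the V1 G subunit. By array, 35 genes were detected without mating, 34 after mating with vasectomized males and 37 after mating with normal males. Of the member probes, 84.7%, 80.6% and 87.5% were well above background on these arrays, against 67.4%, 65.2% and 70.1% of all probes. The Golgi calcium pump gene Atp2c2 is printed on the array under an older clone name and so lies outside the naming rule. Its signals were 3839 without mating, 887 after vasectomized mating and 3261 after normal mating, and its ratios to the not mated array were -0.54 and 0.07.

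**Figure D1:**
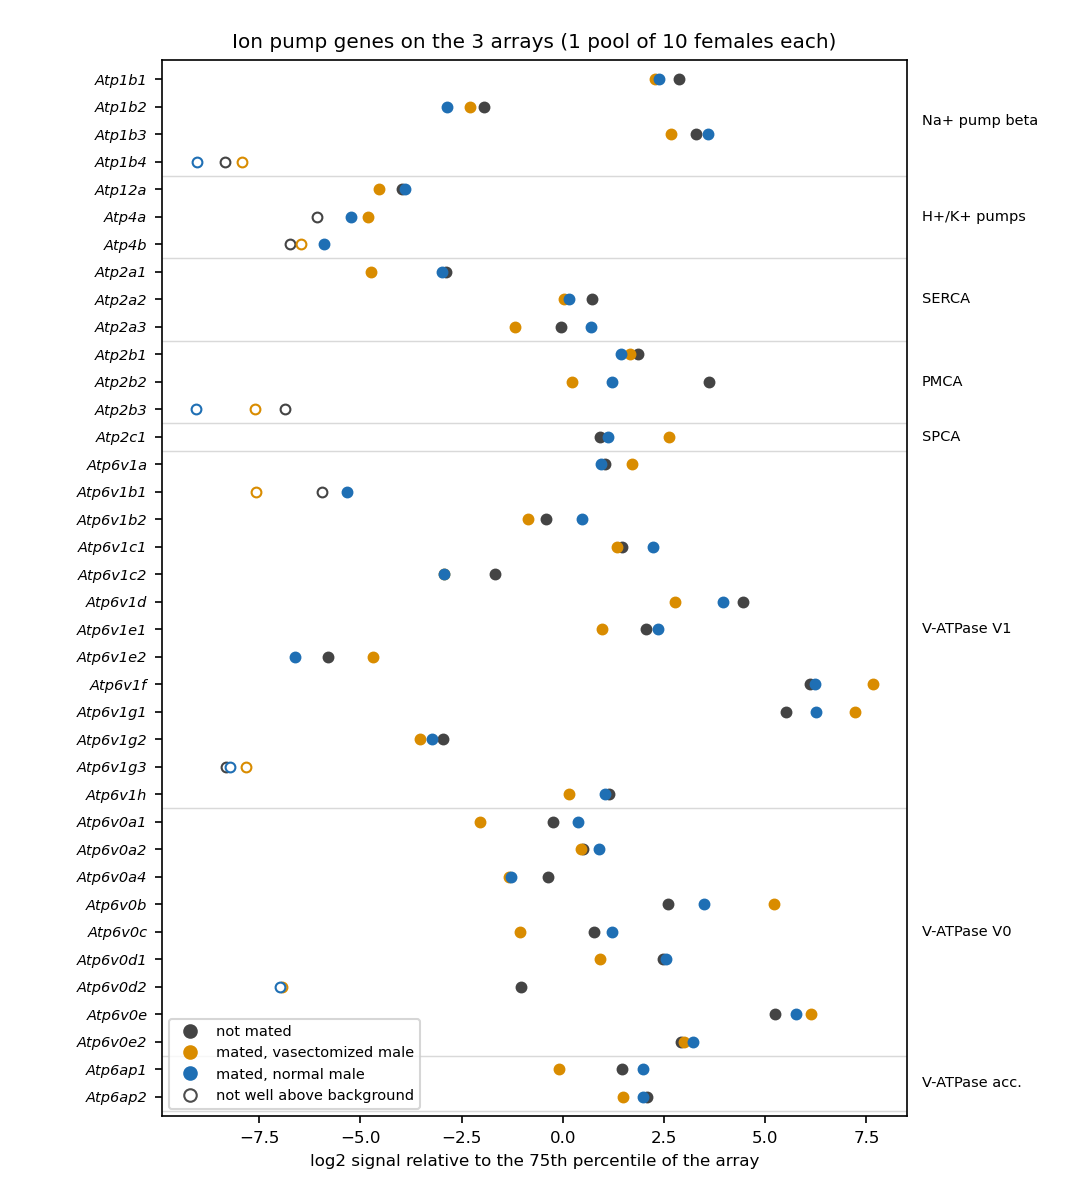
Log2 signal of 38 ion pump genes relative to the 75th percentile of its array (x axis), for the not mated, vasectomized-mated and normal-mated arrays, with 1 pool of 10 females each and no error bars because there were no replicates. Points should be compared along a line and not between genes. Open points, as for both mated arrays of Atp6v0d2 and all 3 arrays of Atp1b4, Atp2b3 and Atp6v1g3, were not well above background.

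After mating with normal males the pump genes as a whole stayed close to their level in unmated females. Of 38 genes compared, 34 stayed within 2-fold and 4 were lower by 2-fold or more, none (0) being higher by as much, with a median log2 ratio of 0.11 (-0.39 with spike-in scaling) against -0.05 for all genes. Across the 19304 genes compared, 9.81% were at least 2-fold higher, 13.2% at least 2-fold lower and 23.0% either. The lower genes included the calcium pump gene Atp2b2 and the V-ATPase genes Atp6v0d2 and Atp6v1c2. Cyclic loess and quantile normalization each put 1 gene at least 2-fold higher, against 11.1% and 10.6% of all genes. Spike-in scaling put 8 of 37 lower and 0 higher, against 27.4% and 5.76% of all genes.

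After mating with vasectomized males the same genes spread further apart. Of 36 compared, 18 stayed within 2-fold, 6 were higher and 12 lower by at least that much, with a median of -0.58 against 0.18 for all genes. The background was wide too: of 19312 genes, 25.8% were at least 2-fold higher, 16.5% lower and 42.4% either. With spike-in scaling the pump genes split into 0 higher and 34 lower, and all genes into 1.05% higher and 89.3% lower. Both comparisons use the same not mated array, so their values are set side by side here and are not independent. Atp2b2, Atp6v0d2 and Atp6v1c2 were at least 2-fold lower in both, and 17 genes were within 2-fold in both. The same overlap was not counted over all genes, so these counts are not read further.

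Comparing the matings directly, 10 of 36 pump genes were at least 2-fold higher after normal than after vasectomized mating and 4 were lower, with a median of 0.32 against -0.27 for all genes. Over the 18990 genes of this comparison, 14.7% were at least 2-fold higher, 28.0% lower and 42.7% either. Spike-in scaling gave 33 higher and 0 lower among the pump genes, and 81.5% higher and 1.14% lower among all genes. In all, 20 pump genes reached 2-fold in at least 1 of the 3 comparisons. The other 21 did so in no comparison made, and they include the 3 genes never compared (Atp1b4, Atp2b3 and Atp6v1g3). The share of all genes reaching 2-fold in at least 1 comparison was not counted, so the 20 cannot be set against it.

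**Figure D2:**
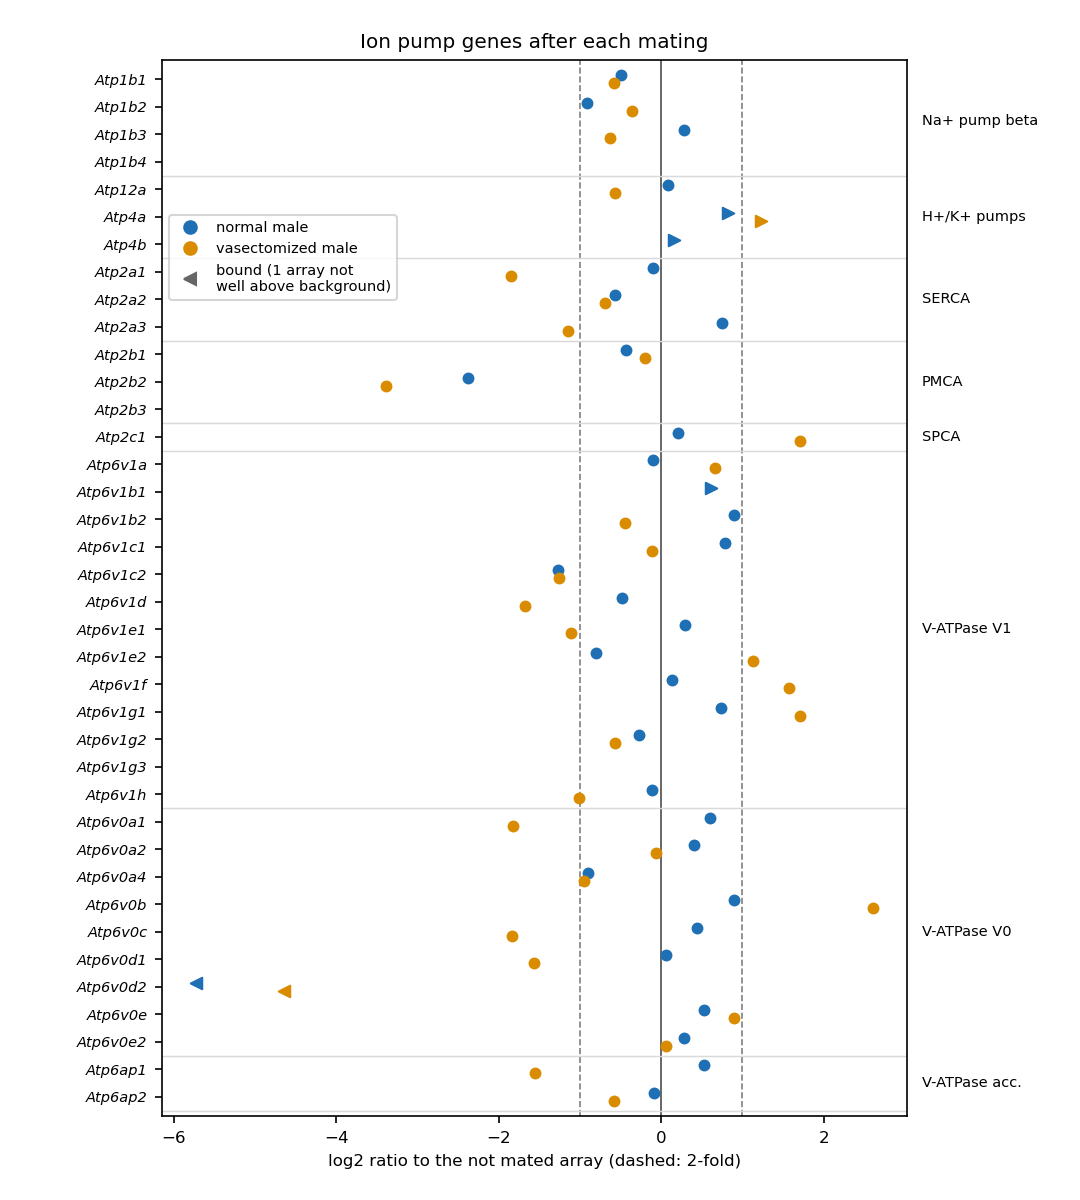
Log2 ratio of ion pump genes to the not mated array (x axis), for the array of females mated with normal males (35 genes with a ratio) and that of females mated with vasectomized males (33 genes), after scaling to the 75th percentile. Of the 38 genes listed, those without a point had no ratio. Triangles are bounds and dashed lines mark 2-fold; Atp6v0d2 and Atp2b2 lie far to the left for both matings, and the 6 genes right of the dashed line after vasectomized mating moved to the left of 0 (5 genes) or had no value (Atp4a) with spike-in scaling.

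The sodium pump's beta subunits, which carry it to the membrane, stayed within 2-fold at the brightest probe of each gene. Atp1b1 read 6394, 1438 and 3692 on the not mated, vasectomized-mated and normal-mated arrays, or -0.58 and -0.49 as ratios after vasectomized and normal mating. Atp1b3 read 8625, 1879 and 8475, with ratios of -0.63 and 0.28. Of its further probes well above background, one gave -0.33 and 0.21, and a dimmer one gave -1.02 and 0.17 and was 1.19 higher on the log2 scale after normal than after vasectomized mating. Atp1b2 stood at -0.36 and -0.91. Over the brightest probes of these 3 genes the median was -0.58 after vasectomized and -0.49 after normal mating, with 0 at least 2-fold higher or lower in either comparison. Of all genes compared, 42.4% and 23.0% were at least 2-fold higher or lower after these matings.

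Markers of muscle and vessels also differed. The smooth muscle markers had a median of -0.96 after normal mating, with 4 of 9 at least 2-fold lower and 0 higher, and -0.67 after vasectomized mating, with 3 lower and 3 higher. Their summed signal, scaled to the array's 75th percentile, was 462 without mating, 1276 after vasectomized and 345 after normal mating. Such a sum follows its brightest genes. Tagln was the brightest smooth muscle marker on each array, at 2.28 after vasectomized and 0.16 after normal mating, while 6 of the 9 markers lay below 0 after vasectomized mating. Endothelial markers were at least 2-fold lower for 7 of 8 after normal mating (median -1.78) and for 4 of 8 after vasectomized mating (median -0.85), with summed signals of 23.0, 26.1 and 8.54 on the not mated, vasectomized-mated and normal-mated arrays. Their part in the pump gene ratios was not tested.

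The small proteins that tune the sodium pump differed in both directions. Of 11 FXYD and NKAIN genes on the array, 9 were compared, and after normal mating 1 was at least 2-fold higher and 2 lower (median -0.63), while after vasectomized mating 3 were higher and 1 lower (median 0.09). Nkain4, one of a family of membrane proteins that interact with the beta subunit, read 1449 without mating, 5692 after vasectomized mating and 4163 after normal mating, which is 11.7-fold and 3.54-fold higher (log2 3.54 and 1.83). Nkain3 was lower, at -1.04 and -1.58, and Nkain1 stood at -0.93 and -1.05. The FXYD genes Fxyd6 and Fxyd5 stood at 1.75 and 1.19 after vasectomized mating and at -0.08 and -0.63 after normal mating.

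The proton-potassium pumps, which acidify the stomach and the colon, were close to background. Atp12a, the colonic form, read 55.5 without mating, 12.7 after vasectomized and 47.8 after normal mating and stayed within 2-fold (ratios -0.56 and 0.09). Atp4a, the gastric catalytic subunit, was not well above background without mating (13.0) and reached 10.4 and 18.9 on the vasectomized-mated and normal-mated arrays, giving bounds of at least 2.34-fold and 1.76-fold higher. Its other probe, well above background without and after normal mating, went the other way, with 16.4 and 7.31. Atp4b, the gastric beta subunit, was well above background only after normal mating. Of the 4 parietal cell markers on the array, Aqp4, Kcne2 and Slc26a7 were well above background on all 3 arrays and Cblif on none. Kcne2, a potassium channel subunit, read 1635 without mating, 50.7 after vasectomized and 23.7 after normal mating. Aqp4 went the other way, at 17.0, 108 and 236, and Slc26a7 read 44.6, 49.9 and 23.1. As ratios after vasectomized and normal mating, Kcne2 stood at -3.44 and -5.81, Aqp4 at 4.24 and 4.09, and Slc26a7 at 1.73 and -0.65. The summed scaled signals of the 4 markers were 1.95, 0.714 and 0.401, with Kcne2 the brightest of them without mating.

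Among all members, a calcium pump gene had the second lowest ratio to the not mated array after each mating. Atp2b2, the plasma membrane pump known from sensory hair cells and from the mammary gland, where it exports calcium into milk, read 10655 without mating, 344 after vasectomized mating and 1657 after normal mating. It was 10.46-fold lower after vasectomized mating (log2 -3.39) and 5.21-fold lower after normal mating (log2 -2.38). All 9 alternatives left it at least 2-fold lower in both comparisons, between -6.15 and -3.27 and between -2.86 and -2.29. Its ratio ranked 82nd from the bottom of 19312 genes after vasectomized mating and 289th of 19304 after normal mating. The gene had 1 probe, at chr6:113909283-113909342 on the minus strand of the array's own build, mm7.

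The other plasma membrane pump with a signal stayed within 2-fold at its brightest probe. Atp2b1, the form of most cells, read 3180, 936 and 1907 on the not mated, vasectomized-mated and normal-mated arrays, with ratios of -0.20 and -0.43 after vasectomized and normal mating. Its 4 probes ranged from -0.20 to 1.49 after vasectomized mating and from -0.93 to -0.30 after normal mating. None reached 2-fold lower, but dimmer probes at 1.26 and 1.49 were at least 2-fold higher after vasectomized mating. Between the matings these dimmer probes gave -2.17 and -2.43.

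Of the epithelial markers, 5 of 9 were at least 2-fold higher after normal mating and 0 lower, with a median of 1.01. After vasectomized mating 1 was higher and 3 lower, with a median of -0.38. Their summed scaled signals were 448 without mating, 315 after vasectomized and 742 after normal mating. The uterine gland markers went both ways. Of 6, 3 were at least 2-fold higher and 2 lower after normal mating (median 0.97), and 2 were higher and 2 lower after vasectomized mating (median -0.66). Prss28 and Prss29, serine proteases secreted by the glands, were far lower after both matings, at -9.26 and -4.55 after normal mating and at -11.47 (a bound) and -6.05 after vasectomized mating, while Foxa2, the transcription factor of the same glands, stood at 1.65 and 1.78. The secreted-protein genes Ltf and Cxcl15 stood at 1.22 and 1.19 after normal mating and at -0.73 and 1.87 after vasectomized mating, and Wnt7b at 0.75 and -0.58. Their part in the Atp2b2 result was not tested.

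Of the pumps of the endoplasmic reticulum, Atp2a3 and Atp2a1 were at least 2-fold higher after normal than after vasectomized mating (1.89 and 1.75). For Atp2a1 the weakest of 9 alternatives gave 0.01. Between the matings Atp2a2 stood at 0.12 at its brightest probe and at 2.36 at a dimmer one. Atp2a3, known from epithelial and blood cells, read 848 without mating, 129 after vasectomized and 1154 after normal mating, so that the ratios to the not mated array were -1.14 and 0.75 and the normal-mated array was 3.71-fold above the vasectomized-mated one. Atp2a1, the fast-muscle form, read 118, 11.1 and 89.7, with ratios of -1.85 and -0.10. With normexp background correction its ratio after vasectomized mating was 0.05. Atp2a2, the form of smooth muscle and most other cells, read 1442, 302 and 791 and stayed within 2-fold at -0.69 and -0.56, although its probes well above background ranged from -2.61 to 0.26 after vasectomized mating. Skeletal muscle markers stood at a median of -0.05 after vasectomized mating, with 0 of 6 at least 2-fold changed.

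Atp2c1, the Golgi pump that supplies calcium and manganese to secreted proteins, was the only calcium pump gene whose brightest probe was at least 2-fold higher after vasectomized mating. It read 1645, 1811 and 1540, for ratios of 1.71 after vasectomized mating and 0.21 after normal mating, and of -1.50 between the matings. With spike-in scaling these turned to -1.06 for vasectomized against not mated and to 0.79 for normal against vasectomized mated. Its 3 probes well above background on both arrays gave 0.98 to 1.71 after vasectomized mating, while another probe, at 27.0 without mating, had no signal well above background after vasectomized mating. Over the 6 calcium pump genes compared, 0 were at least 2-fold higher and 1 lower after normal mating (median -0.27), and 1 was higher and 3 lower after vasectomized mating (median -0.92). Of all genes compared, 9.81% were higher and 13.2% lower after normal mating (median -0.05). After vasectomized mating the shares were 25.8% and 16.5% (median 0.18).

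The wider calcium machinery changed in both directions. Of 24 genes of calcium stores, entry and exchange, 21 were compared after normal mating, with 2 at least 2-fold higher and 4 lower (median -0.26), and 22 after vasectomized mating, with 7 higher and 6 lower (median 0.48). After normal mating the plasma membrane sodium-calcium exchanger Slc8a1 (-1.96) and the inositol trisphosphate receptor Itpr2 (-1.90) were lower, and the calcium entry channel Orai2 (1.47) was higher. After vasectomized mating these stood at -0.37, -1.13 and 1.35. The store channel Ryr1 and the store protein Casq2 led the higher genes after vasectomized mating, at 3.10 and 2.78, and Casq1 was the lowest at -2.19. After normal mating they stood at 1.21, -0.26 and -1.47.

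The V-ATPase made up most of the members, with 24 genes. After normal mating 0 of 23 were at least 2-fold higher and 2 were lower, with a median of 0.28 (-0.20 with spike-in scaling). After vasectomized mating 4 of 22 were higher and 9 lower, with a median of -0.58. Over all genes compared, 9.81% were higher and 13.2% lower after normal mating, and 25.8% and 16.5% after vasectomized mating. The pump is assembled from subunits that most tissues share and from forms restricted to a few. After normal mating the 16 shared genes had a median of 0.42 (-0.06 with spike-in scaling), with 12 above 0 and 0 at 2-fold either way at their brightest probes. The 7 restricted genes compared had a median of -0.81, with 2 lower, and between -1.28 with spike-in scaling and -0.10 with normexp correction. After vasectomized mating the medians were -0.51 for the shared genes, with 3 higher and 7 lower, and -0.76 for the 6 restricted genes compared, with 1 higher and 2 lower. Spike-in scaling shifts the measured ratios of that mating to the not mated array by -2.77. The difference between the lists was not tested.

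Atp6v0d2 and Atp6v0d1 encode the 2 forms of subunit d, the collar that joins the rotating proteolipid ring to the central stalk. Atp6v0d1 is the form of most cells, and Atp6v0d2 is known from osteoclasts, macrophages, kidney and epididymis. Atp6v0d2 read 431 without mating, 2.41 after vasectomized and 5.57 after normal mating, neither of the latter being well above background. Only the not mated array held a measurable level, so both ratios are bounds, at least 53.1-fold lower after normal mating and at least 25.1-fold lower after vasectomized mating (log2 -5.73 and -4.65). The smaller bound for the vasectomized-mated array was set by that array's higher floor, as the scaled level of its dimmest probe well above background was -5.67 against -6.75 on the normal-mated array. The matings could not be compared with each other for this gene. Over the 8 alternatives with a value the ratio stayed at least 2-fold lower, from -6.21 to -2.67 and from -7.41 to -1.59, the weakest being normexp correction. The single probe lies at chr4:19804305-19804364 on the minus strand of mm7.

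Its paralogue was well above background on all 3 arrays. Atp6v0d1 read 4888, 555 and 4135 on the not mated, vasectomized-mated and normal-mated arrays, which is 0.06 after normal mating and -1.57 after vasectomized mating. The normal-mated array thus held Atp6v0d1 near its unmated level while Atp6v0d2 was not well above background.

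Other restricted subunits gave smaller differences. Atp6v1c2, an epithelial form of subunit C, which bridges the stalks of V1, read 274 without mating, 38.5 after vasectomized and 92.2 after normal mating. It was 2.40-fold lower after normal mating and 2.39-fold lower after vasectomized mating (log2 -1.27 and -1.26), and 1 of the 9 alternatives left each within 2-fold, with weakest values of -0.86 and -0.39. Atp6v0a4, the kidney form of subunit a, which holds the proton channel, read 678, 118 and 294, with ratios of -0.95 after vasectomized and -0.90 after normal mating. A further probe gave -0.33 and -1.07. Atp6v1b1, the kidney and epididymis form of subunit B, was well above background only after normal mating, with 17.7 against 14.2 without mating.

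Atp6v1e2, the testis form of subunit E, was dim on all arrays, at 15.7, 11.5 and 7.27. Its ratios were 1.13 after vasectomized mating, -0.81 after normal mating and -1.93 between the matings, and spike-in scaling turned the first to -1.64 and the last to 0.36. Atp6v1g2, the brain form of subunit G, and Atp6v0e2, a brain-enriched form of subunit e, stayed within 2-fold in every comparison at their brightest probes, at -0.27 and 0.28 after normal mating. Their second probes, also well above background on all 3 arrays, did not: that of Atp6v1g2 gave -1.62 after vasectomized and -0.80 after normal mating. That of Atp6v0e2 gave -0.70 and 0.34, and 1.03 between the matings.

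Cells that place the pump at their surface share a set of markers, and these differed in both directions. Of the 12 genes listed for such cells, 9 were compared, with 2 at least 2-fold higher and 1 lower after normal mating (median -0.22), and 1 higher and 1 lower after vasectomized mating (median -0.38). Foxi1, the transcription factor that defines them, the ammonium channel Rhcg and the water channel Aqp6 were not well above background on any array. Slc26a4, the anion exchanger pendrin, read 2283 without mating, 15522 after vasectomized and 50521 after normal mating, 20.2-fold and 27.3-fold higher. Car2, the cytosolic carbonic anhydrase, stood at 0.90 after vasectomized and 1.36 after normal mating.

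Car4, the membrane-bound carbonic anhydrase, had the pattern of Atp6v0d2. It read 393 without mating and was not well above background after either mating (4.06 and 2.20), giving bounds of at least 22.8-fold and 48.4-fold lower. It lies outside the naming rule and was chosen after its values were seen.

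Markers of macrophages and osteoclasts, other known sources of Atp6v0d2, were measured as well. Macrophage markers had a median of -0.11 after normal mating, with 1 of 8 at least 2-fold higher and 1 lower, and 1.61 after vasectomized mating, with 5 higher and 0 lower. Their summed scaled signals were 40.9, 141 and 41.2 on the not mated, vasectomized-mated and normal-mated arrays, with Lyz2 the brightest of them on each. Osteoclast markers stood at medians of 0.15 and -0.37, with summed signals of 6.94, 9.01 and 9.35. Neutrophil markers were at least 2-fold higher for 8 of 8 after each mating, with summed signals of 0.370 without mating, 87.0 after vasectomized and 61.1 after normal mating. S100a9 was the brightest of them on each array. The part of these cells in the V-ATPase ratios was not tested.

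Within the V0 sector, the shared subunits split after vasectomized mating. Atp6v0b, the c'' proteolipid of the rotating ring, read 5276 without mating, 10881 after vasectomized mating and 7932 after normal mating. It was 6.12-fold higher after vasectomized mating (log2 2.61; -0.15 with spike-in scaling) and stood at 0.89 after normal mating. Atp6v0c, the c proteolipid that forms most of the same ring, read 1492, 141 and 1640, 3.57-fold lower after vasectomized mating (log2 -1.84) and 0.44 after normal mating. Against each other, the matings gave -1.72 for Atp6v0b (0.57 with spike-in scaling) and 2.27 for Atp6v0c. Any factor that scales a whole array moves both genes alike and leaves the gap between them. Each of these genes had 1 probe, so agreement between probes could not be seen. Probes of 1 pump gene lay up to 3.00 apart after vasectomized mating (Atp6v0a1). The part of probe choice in the gap was not tested.

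Atp6v0a1, the most common subunit a, read 743, 71.0 and 913, with ratios of -1.82 after vasectomized and 0.60 after normal mating. Its other probes gave 0.79 and 1.18 after vasectomized mating, and the mean of its probes was 0.05, so no direction is settled. After normal mating they gave 0.14 and 1.43. Atp6v0a2, the Golgi form, stayed at -0.06 and 0.40, and its 3 probes lay between -0.37 and -0.06 after vasectomized mating. Atp6v0e, a small membrane subunit, read 32810, 20561 and 38345 and stood at 0.89 and 0.53, within 2-fold. Its second probe gave 0.97 and -0.72.

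A shared element in the promoters of 6 pump genes is shown because it lies beside the start of Atp6v0b and Atp6v0d1, V0 genes whose ratios after vasectomized mating were 2.61 and -1.57. The hexamer CACGTG is the E-box read by the TFE family of transcription factors (Tfeb, Tfe3, Mitf), which are known to drive lysosomal genes. RefSeq promoters (mouse build GRCm38.p6, 250 bases before to 50 after a start) were given for 27 of the 41 genes, 35 promoters in all. The hexamer, which reads the same on both strands, was in 6 of these 35, against 7.15% of 32851 promoters. With a T before it or an A after it (TCACGTG on either strand, which contains the hexamer) it was in 5 of 35, against 3.77%. The windows below read in the direction of the gene, with the hexamer in capitals and 20 bases on each side.
Atp6v0b: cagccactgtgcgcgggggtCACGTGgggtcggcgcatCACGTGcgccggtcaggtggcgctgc
Atp6v0d1: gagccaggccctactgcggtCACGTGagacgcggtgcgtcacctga
Atp6v0e: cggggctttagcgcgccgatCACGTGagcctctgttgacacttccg
Atp6v1a: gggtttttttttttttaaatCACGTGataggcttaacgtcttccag
Atp2b1: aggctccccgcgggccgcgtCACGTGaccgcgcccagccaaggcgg
Atp1b3: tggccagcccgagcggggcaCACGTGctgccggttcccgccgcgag
They lie at chr4:117887322-117887385 (minus strand), chr8:105566042-105566087 (minus), chr17:26676379-26676424 (plus), chr16:44139365-44139410 (minus), chr10:98914630-98914675 (plus) and chr9:96363911-96363956 (minus). Atp6v0b holds the hexamer at 2 places, 36 and 18 bases before its start (positions -36 and -18), and Atp6v0d1 at -3. In Atp6v0e the hexamer starts at position 4 and in Atp2b1 at 9, just past the start site. In Atp1b3 it starts at -221 and in Atp6v1a at -131. A match describes these letters and shows no binding. After vasectomized mating Atp6v0b stood at 2.61, Atp6v0e at 0.89, Atp6v1a at 0.67, Atp2b1 at -0.20, Atp1b3 at -0.63 and Atp6v0d1 at -1.57, so that 3 lay above and 3 below 0 with this scaling. With spike-in scaling all 6 lay below 0, from -4.34 for Atp6v0d1 to -0.15 for Atp6v0b.

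The V1 sector split in the same way. Atp6v1f, a central stalk subunit, read 59790 without mating, 60071 after vasectomized mating and 53379 after normal mating, for ratios of 1.58 and 0.14. Atp6v1g1, a peripheral stalk subunit, read 40015, 44063 and 54133, for 1.71 and 0.74. Each gene had a second probe that gave 1.42 and 2.18 after vasectomized mating and 0.14 and 1.1 after normal mating, so these were the only pump genes with several measured probes that had all of them at least 2-fold higher there. Spike-in scaling turned both, to -1.19 for Atp6v1f and -1.06 for Atp6v1g1, and it turned Atp6v1f between the matings from -1.44 to 0.85.

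Other V1 subunits were lower after vasectomized mating. Atp6v1d, the second central stalk subunit, read 18999, 1999 and 10980, or 3.20-fold lower (log2 -1.68), and -0.49 after normal mating. Atp6v1e1, which pairs with subunit G in the peripheral stalks, read 3653, 572 and 3634, or -1.11 and 0.30, and its second probe gave -0.95 and 0.44. Atp6v1h, a regulatory subunit, read 1943, 325 and 1458, or -1.01 and -0.11, with further probes at -1.90 and -0.08 after vasectomized and at -0.28 and -1.09 after normal mating.

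At their brightest probes, the genes of the catalytic hexamer stayed within 2-fold of the not mated array. Atp6v1a, which holds the catalytic site, read 1807, 967 and 1362, for 0.67 after vasectomized and -0.11 after normal mating, with a second probe at -1.90 and -0.64. Atp6v1b2, its non-catalytic partner, read 657, 163 and 990, for -0.44 and 0.90, which put it 2.52-fold higher after normal than after vasectomized mating. Atp6v1c1, the widespread subunit C, stood at -0.12 and 0.78. By sector, V1 had a median of 0.02 after normal mating (-0.46 with spike-in scaling) and -0.44 after vasectomized mating (3 of 11 higher, 4 lower). V0 had 0.40 (-0.08 with spike-in scaling) and -0.95 (1 of 9 higher, 4 lower). Of all genes compared after vasectomized mating, 25.8% were higher and 16.5% lower.

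Of the accessory proteins, Atp6ap1, which guides assembly of the membrane sector, read 2404, 275 and 2819. It was 2.94-fold lower after vasectomized mating (log2 -1.56), stood at 0.53 after normal mating and was 4.26-fold higher after normal than after vasectomized mating. Atp6ap2, the prorenin receptor, read 3672, 824 and 2790 and stayed at -0.59 and -0.09.

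**Figure D3:**
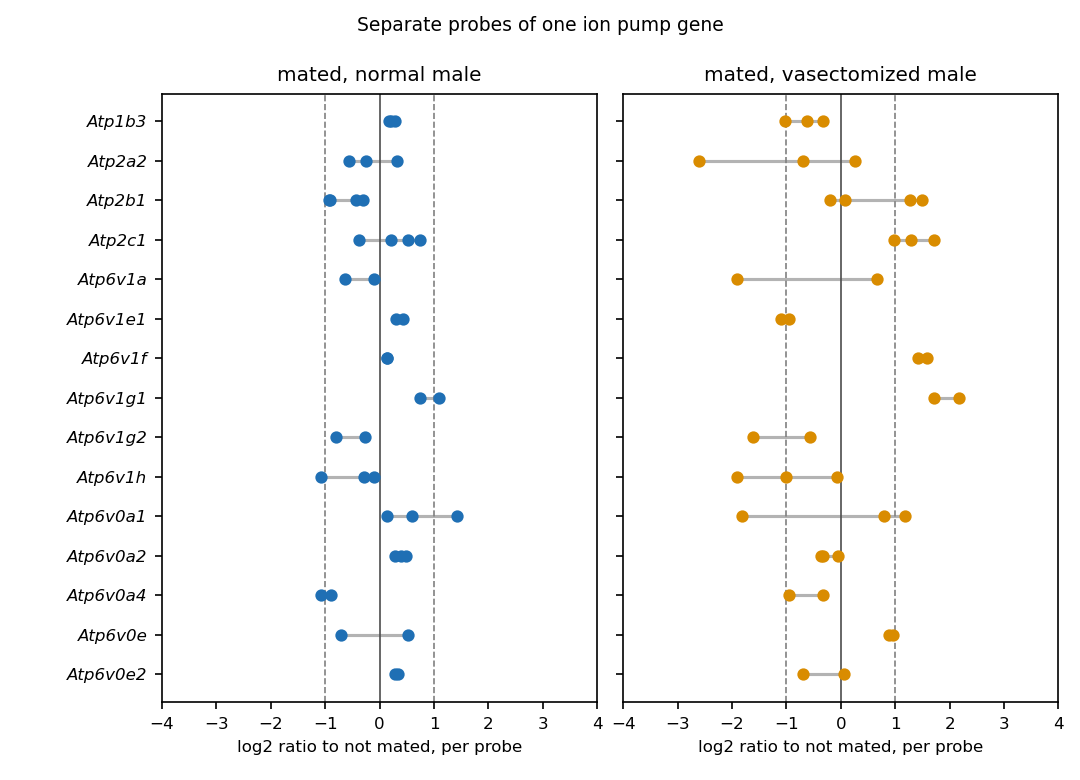
Log2 ratio to the not mated array for each probe of 15 ion pump genes with at least 2 probes well above background on both arrays, after normal mating (left) and vasectomized mating (right); each point is 1 probe, grey lines join the probes of a gene and dashed lines mark 2-fold. On the right, the probes of Atp6v0a1, Atp2a2 and Atp6v1a are among those on both sides of 0.

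How far probes of 1 gene agree bears on all of these ratios. Among 16 pump genes with several probes well above background, 4 (25.0%) had probes over 2-fold apart after normal mating and 7 (43.8%) after vasectomized mating, against 11.9% of 6302 and 51.9% of 5822 of all genes. The vasectomized-mated ratio also varied along the transcript. Where probes carried the same RefSeq transcript, the probe nearest the 3' end gave the higher ratio after vasectomized mating in 9 of 15 pump genes and in 65.0% of 3748 probe sets of all genes, with median differences of 0.27 and 0.33 on the log2 scale. After normal mating it did so in 7 of 15 pump genes and in 51.6% of 4111, with medians of -0.06 and 0.01. In Atp6v1a the difference between the outer probes was 2.57 and in Atp2a2 it was 1.92, while in Atp6v0a1 it was -3.00. The labelling reaction started from the poly(A) tail, per the labels' protocols. The part of probe position in the vasectomized-mated ratios was not tested further.

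Genes that work with the V-ATPase were measured alongside it. Of 15 assembly factors, regulators and the osteoclast subunit a, 3 were at least 2-fold higher and 1 lower after normal mating (median 0.0011), and 5 were higher and 2 lower after vasectomized mating (median 0.43). Ncoa7, which binds the V1 sector, read 7571 without mating, 13203 after vasectomized and 38956 after normal mating, 5.17-fold and 6.35-fold higher. Tcirg1, the subunit a of osteoclasts, which lies outside the naming rule, read 1098, 711 and 1813, or 0.94 and 1.03. Vma21, an assembly factor of V0, was the third gene at least 2-fold higher after normal mating, with signals of 653, 623 and 1063. The E-box factors went different ways. Mitf stood at 1.86 after vasectomized and -1.05 after normal mating, Tfe3 at -1.42 and 0.0011, and Tfeb at -0.23 and -0.55. Dmxl2, of the complex that reassembles the pump, stood at 1.73 after vasectomized and -0.41 after normal mating.

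Most genes for the lysosomal cargo that the pump serves lay above 0 after normal mating. Among 26 such genes, 6 were higher by at least 2-fold and 0 lower, with a median of 0.34 (-0.14 with spike-in scaling) and 21 above 0, and after vasectomized mating 4 were higher and 4 lower, with a median of -0.07. Gla, alpha-galactosidase A, read 299, 92.2 and 984, or 2.02 after normal and -0.13 after vasectomized mating. The protease gene Ctsl stood at 1.59 and 1.63, and Scarb2, a lysosomal membrane protein, at 1.54 and 0.03. After vasectomized mating the hydrolase gene Gaa (-2.04) was lower and the membrane protein gene Lamp2 (2.22) was higher. The chloride transporters that balance the pumped charge stayed within 2-fold in 7 of 7 genes after normal mating (median -0.02), and in 6 of 7 after vasectomized mating (median -0.05), where Ostm1, the partner of the lysosomal exchanger, stood at 2.42.

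**Figure D4:**
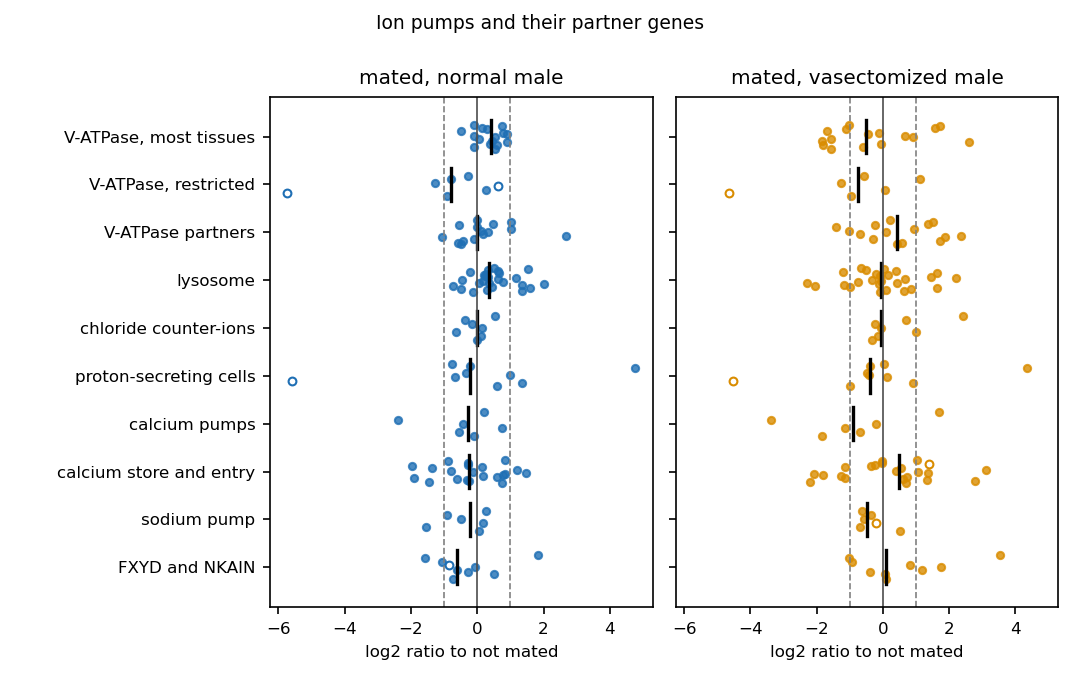
Log2 ratio to the not mated array (x axis) for the genes of each pump group and partner list, after normal mating (left) and vasectomized mating (right); points are genes, open points are bounds and black bars are list medians. After normal mating the V-ATPase genes of most tissues lie within the dashed 2-fold lines with a median of 0.42 (-0.06 with spike-in scaling), and Atp6v0d2 and Car4 are the open points at the far left.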

How the data were processed

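Total RNA of 3 pools of the utero-tubular junction was measured on 1 Agilent array each. The deposited values are processed intensities, which the authors obtained with Agilent Feature Extraction, version 10.5.1.1 per the file headers and 9.5.3 per the submitters' processing notes. Per the file headers, the software subtracted background and removed spatial trends within each array; no scaling across arrays was recorded. The deposited intensities were turned into log2 values here, minus the array's 75th percentile, in R 4.3.3 with limma 3.58.1 for the alternative scalings and data.table (1.17.8) for reading. Summaries and plots used pandas 2.3.3, numpy 2.4.6, matplotlib 3.10.9 and Python 3.11.15. Flagged spots and controls were left out. Members keep the name in the files, and other probes were named through the RefSeq gene table of GRCm38.p6. A gene takes its brightest probe, a probe well above background somewhere being preferred. Where 1 of 2 arrays was not well above background, the ratio is a bound against the higher of the probe's own level and the dimmest level well above background on that array. Probe positions are those of the files (build mm7, per the file headers), and their exon or intron was not analysed here. Precision is limited by having 1 array a group, which allowed no test, p-value or permutation.

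Members and lists were chosen with earlier results of these data known. Named are all members at least 2-fold different in a comparison, Atp6v0d2 and Atp6v0d1, the member of each family with the highest signal without mating, and up to 3 genes per partner list and mating with the largest absolute ratio among those well above background on both arrays; a few other members and partners were chosen after their values were seen. A few genes covered by this rule are not reported here, nor drawn in the plots that name genes. The ratio step was tested on simulated data. Alternatives were other scalings, normexp correction with offset 50, other rules for probes and dim signals, and folds of 1.5 and 3. The comparison of probes along a transcript was added after the data were seen.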

Additional observations from a re-analysis of the deposited data

How the results depend on the processing

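No paired analysis was possible because each group had 1 array, and no replicate could be left out. The counts of pump genes depended on the fold and on the spike-in scaling, as did the shares of all genes, given in brackets. For normal against not mated, the 0 higher and 4 lower genes became 8 and 7 at 1.5-fold (17.5% and 24.8%). At 3-fold 2 were lower (4.96%), and with spike-in scaling 8 (27.4%). With cyclic loess 1 was higher (11.1%), and with quantile normalization 1 (10.6%). For vasectomized against not mated, the 6 higher and 12 lower genes became 3 and 6 at 3-fold (14.1% and 7.75%). They became 0 and 34 with spike-in scaling (1.05% and 89.3%), and 3 were higher with cyclic loess (23.1%). For normal against vasectomized mated, the 10 higher and 4 lower genes became 6 and 2 at 3-fold (6.49% and 14.1%). They became 33 and 0 with spike-in scaling (81.5% and 1.14%), and 7 were lower at 1.5-fold (39.9%). The cause of the changes with cyclic loess and quantile normalization was not tested. Of the called genes, 4 of 4, 10 of 18 and 10 of 14 kept their direction under every alternative with a value, and 3, 6 and 7 also stayed at least 2-fold, in the same order of comparisons. Spike-in scaling reversed Atp2c1 (-1.06), Atp6v0b (-0.15), Atp6v1e2 (-1.64), Atp6v1f (-1.19) and Atp6v1g1 (-1.06) for vasectomized against not mated, and Atp2c1 (0.79), Atp6v0b (0.57), Atp6v1e2 (0.36) and Atp6v1f (0.85) for normal against vasectomized mated. The mean over probes reversed Atp6v0a1 (0.049) and Atp4a (-0.19, also with the median over probes) for vasectomized against not mated and Atp2c1 (0.011) for normal against vasectomized mated, because their probes disagree. Normexp correction reversed Atp2a1 (0.052) for vasectomized against not mated; the cause was not tested. For signals near background, as in Atp6v1e2, Atp4a and Atp12a, background limits what a ratio can show.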
